A study of Mus musculus with 2 samples.

Results

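The 10 genes described here act in non-homologous end joining and in the first response to a DNA double-strand break: Xrcc6, Xrcc5, Prkdc, Dclre1c, Dntt, Lig4, Xrcc4, Nhej1, Atm and Trp53bp1. They were chosen by name, and every gene probe that carried a member's symbol or a current synonym was kept. This gave 21 probes on 39 spots per array, of 41174 probes for 27666 gene names on 43379 spots. Of the 21 member probes, 20 were tested, and each of the 10 genes had at least 1 tested probe.

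Autoreactive immature B cells of strain BALB.B with the genotype 3-83Igi,Rag1-/-,H-2b were set against non-autoreactive cells of strain BALB/c with the genotype 3-83Igi,H-2d. The allele 3-83Igi, shared by both groups, is a knocked-in antigen receptor that binds class I molecules of H-2b, so the BALB.B cells meet their antigen in the bone marrow. Both groups were pooled marrow cells of untreated mice, positive for B220 and negative for CD43, IgD and CD23 in the sort, and the ages and number of animals are not given in the sources used here. RNA from each of 2 autoreactive pools (Cy5) was hybridised together with non-autoreactive RNA (Cy3) on an Agilent two-colour array, giving 2 arrays. The labels number the autoreactive pools only, while the series design counts 2 replicates in each group. Strain, H-2 haplotype, Rag1 genotype and dye differed between the groups in the same way on both arrays, so their effects cannot be told apart from that of autoreactivity.

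Developing lymphocytes cut their own DNA when RAG1 and RAG2 assemble antigen receptor genes, and immature B cells that bind self antigen can cut again at their light chain loci, a process called receptor editing. The cut ends are joined by non-homologous end joining: the Ku heterodimer holds the ends, the kinase DNA-PKcs and the nuclease Artemis open hairpin ends, terminal transferase can add nucleotides, and ligase IV with its partners seals the joint. The kinase ATM and the chromatin protein 53BP1 respond to the same breaks and keep the ends stable until they are joined.

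All ratios below are log2 of autoreactive over non-autoreactive after background correction (normexp, a model of spot intensity over local background) and loess, which removes dye bias that depends on brightness within an array. Levels are log2 intensities of each channel, scaled to be comparable between arrays, and are not compared between probes. Errors are standard errors of limma, a linear model that moderates each probe's spread by that of all probes (SE, n = 2 arrays). A probe was called when its p-value, adjusted over all 22613 tested probes by the Benjamini-Hochberg method, was under 0.05. These p-values measure only the spread between the 2 arrays, moderated by that of all tested probes, and the number of arrays limits the precision.

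Across the array, 54.1% to 56.4% of spots were well above background in the autoreactive channel and 56.6% to 57.4% in the non-autoreactive channel, and 0 spots were saturated. The ratios of the 2 arrays correlated across tested probes with r = 0.695 and rho = 0.593, where probes are not independent replicates. The ratios of array 1 had an SD of 0.34 and those of array 2 one of 0.48. All 12 B lineage markers were well above background in both channels.

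Of the 10 genes, Xrcc6 alone had a called probe, and the ratios farthest below 0 were those of Dntt, which were not called and differed widely between the arrays. Of the 20 tested member probes, limma called 1 higher and 0 lower in autoreactive cells, where 3.18% of all tested probes were called higher and 2.18% lower. At an unadjusted p under 0.05, 2 member probes were higher (10%) and 5 lower (25%), 3 of the 5 from Dntt alone, where 11.8% and 11.3% of all tested probes were. Probes of 1 gene read the same RNA and are not independent. Dntt probe 2 was tested on 1 array only through the non-autoreactive channel, where it was brighter, so the filter favoured its direction. The median member ratio was 0.015, against 0.0056 for all tested probes, and its sign did not hold on either array alone, with -0.016 on array 1 and -0.068 on array 2. In the mean of both arrays, 10 member ratios were positive and 10 negative. In all, 17 of the 20 probes (85%) lay within 1.5-fold of equal expression, as did 91.5% of all tested probes. The channel levels of the groups did not overlap for 4 member probes that were higher in autoreactive cells (20%) and 3 that were lower (15%), where 24.4% and 21.3% of all tested probes were separated in these directions.

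**Figure D1:**
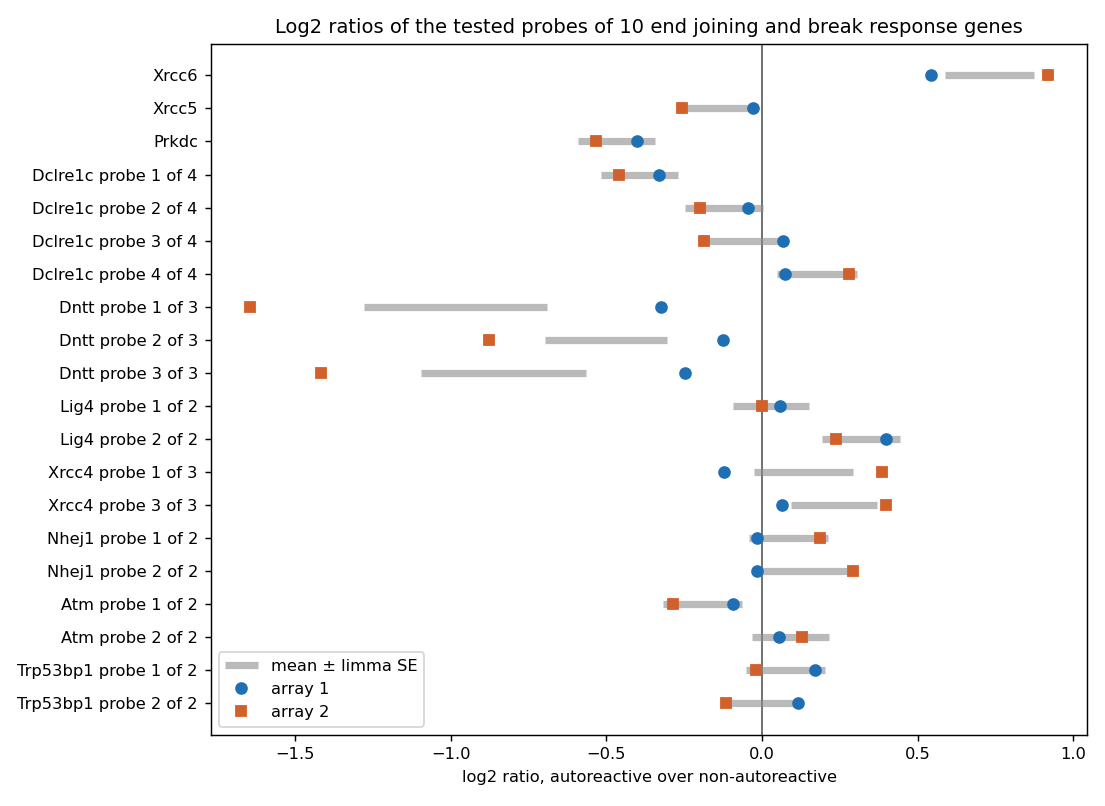
Log2 ratio of autoreactive over non-autoreactive cells (x axis) for each of the 20 tested member probes (y axis). Circles are array 1, squares array 2, and grey bars the mean ± limma SE. Xrcc6 stands at 0.73 with both arrays above 0, and the 3 Dntt probes show the widest gaps between the arrays.

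Xrcc6 and Xrcc5 encode the 2 Ku subunits, which form a ring around a DNA end, and Xrcc6 was called higher while Xrcc5 was not called. Promoter windows of both genes are shown because they encode partners and only Xrcc6 was called. Each is taken to run from 250 bases before to 50 bases after a start of the gene in RefSeq (assembly GRCm38.p6). This was the most frequent layout, found for 60.1% of 16560 plus-strand windows. Each window reads 5′ to 3′ on the gene's strand, and has GC boxes (GGGCGG) and CCAAT boxes in capitals on either strand. The window of Xrcc6 lies at chr15:82016119-82016418 on the plus strand and that of Xrcc5 at chr1:72307171-72307470 on the plus strand.
Xrcc6: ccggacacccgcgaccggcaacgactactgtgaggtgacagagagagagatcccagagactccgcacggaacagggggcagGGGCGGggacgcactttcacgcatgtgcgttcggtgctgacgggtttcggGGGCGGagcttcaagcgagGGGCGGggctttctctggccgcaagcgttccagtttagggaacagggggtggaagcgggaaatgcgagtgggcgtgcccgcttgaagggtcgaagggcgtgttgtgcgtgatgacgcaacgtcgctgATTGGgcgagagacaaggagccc
Xrcc5: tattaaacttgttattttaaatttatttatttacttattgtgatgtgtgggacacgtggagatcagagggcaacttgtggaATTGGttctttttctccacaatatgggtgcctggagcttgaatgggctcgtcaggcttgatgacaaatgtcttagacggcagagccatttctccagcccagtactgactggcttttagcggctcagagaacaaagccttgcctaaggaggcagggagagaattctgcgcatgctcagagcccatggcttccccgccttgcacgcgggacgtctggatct
The Xrcc6 window held 64.3% G and C, 30 CpG dinucleotides, 3 GC boxes and 1 CCAAT box (printed as ATTGG), and the Xrcc5 window 48.0%, 9 CpG, 0 GC boxes and 1 CCAAT box. Among the 32851 windows of the table, the median was 52.7% G and C with 7 CpG, 35.7% held a GC box and 37.4% a CCAAT box. Neither window held TATAAA, which 13.6% of all windows held. These matches describe the letters only.

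Xrcc6 encodes Ku70. Its single probe (A_51_P486738, at chr15:82115620-82120093 on the plus strand by the scanner files, whose genome build is not given in the sources used here) had levels of 13.49 and 13.79 in autoreactive cells, against 12.95 and 12.87 in non-autoreactive cells. Both autoreactive levels lay above both non-autoreactive ones. Xrcc6 rose 1.66-fold in autoreactive cells, a log2 ratio of 0.73 ± 0.14, with 0.54 on array 1 and 0.92 on array 2 (limma adjusted p = 0.0437). The call was close to the threshold: it was lost with a normexp offset of 16 in place of 50 (adjusted p = 0.0543), with the deposited ratios (0.0797), without a filter on dim probes (0.0775) and with the channels fitted separately (0.143). Its log2 ratio was 0.73 with offset 16 and 0.75 with the deposited ratios, and the other 2 of those settings reuse the same ratio, so it could not move there. With median centring in place of loess it was 1.08 on tested probes. On all gene probes it was 1.62, where the median tested probe stood at 0.54.

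Xrcc5 encodes Ku80, the partner of Ku70. Its single probe read 11.78 and 11.33 in autoreactive cells, against 11.81 and 11.59 in non-autoreactive cells. The groups overlapped, since the array 1 autoreactive level lay above the array 2 non-autoreactive one. The log2 ratio was -0.14 ± 0.13 (limma adjusted p = 0.541), and it was 0.016 when each array was centred on the median of the tested probes without loess. Within each array the log2 ratio of Xrcc6 exceeded that of Xrcc5, by 0.57 on array 1 and 1.17 on array 2. This difference was not tested.

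**Figure D2:**
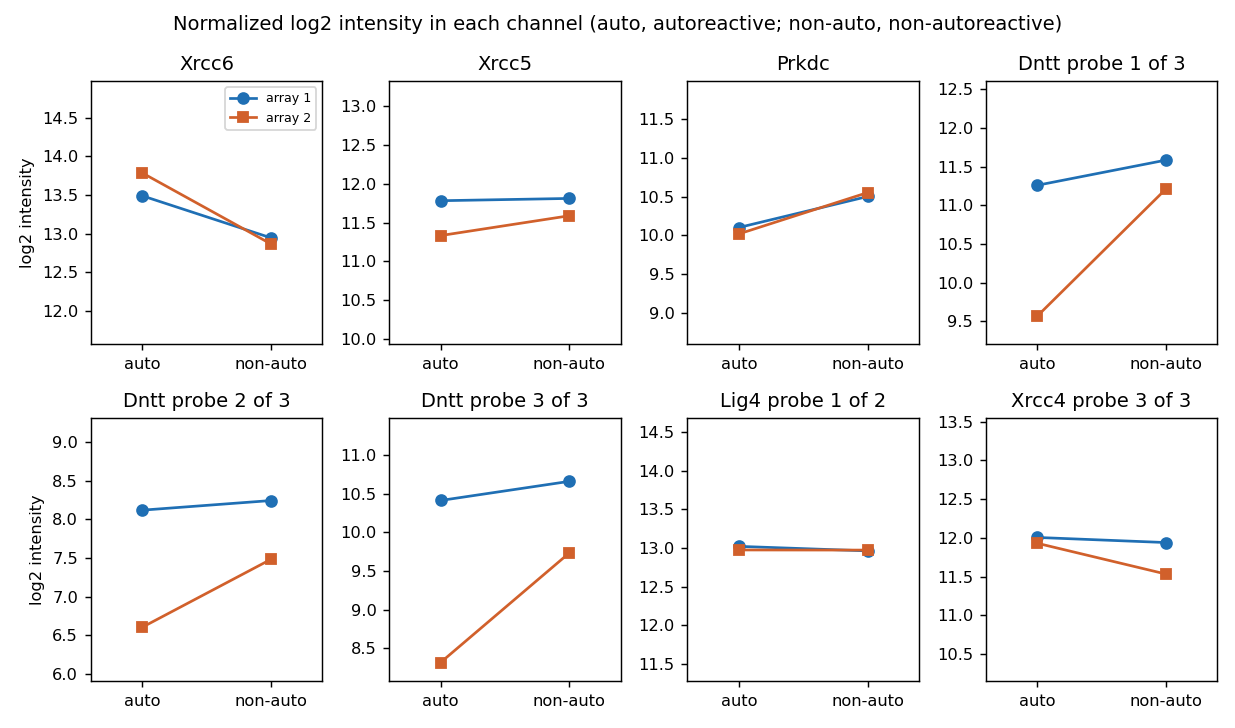
Normalized log2 intensity (y axis) of 8 member probes in the autoreactive channel (left) and the non-autoreactive channel (right), with a line for each array. Xrcc6 slopes down to the right on both arrays, and the Dntt lines rise to the right most steeply on array 2, where the autoreactive level of Dntt probe 1 was 9.57 and the non-autoreactive one 11.21.

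Prkdc encodes DNA-PKcs, the kinase that Ku recruits to a DNA end. Its probe (chr16:15382581-15385186, plus strand) was printed on 10 spots per array, and its levels were 10.10 and 10.02 in autoreactive cells, against 10.50 and 10.55 in non-autoreactive cells. Both autoreactive levels lay below both non-autoreactive ones. The log2 ratio was -0.47 ± 0.12, or 0.723-fold, with -0.40 on array 1 and -0.53 on array 2, and it did not pass the threshold (limma adjusted p = 0.0950). After outlier spots were removed, the 9 spots of array 1 spanned -0.53 to -0.29 (SD 0.0775) and the 8 spots of array 2 spanned -0.56 to -0.49 (SD 0.0211). Spots of 1 array share their RNA and count as 1 replicate. With median centring on tested probes in place of loess, an alternative chosen after seeing the data, Prkdc was called lower at -0.44 (adjusted p = 0.0425). That setting called 3935 of all 22613 tested probes lower, against 494 after loess. With centring on all gene probes Prkdc stood at 0.10, where the median tested probe stood at 0.54.

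Dclre1c encodes Artemis, the nuclease that DNA-PKcs activates to open hairpin ends. None of its 4 tested probes was called after loess. Probe 1 (chr2:3346359-3346418, from a cDNA clone) lay close to the lowest levels above background, at 6.89 and 7.05 in autoreactive cells and 7.21 and 7.50 in non-autoreactive cells. Its groups did not overlap, and its log2 ratio was -0.39 ± 0.12 (limma adjusted p = 0.137). The ratio of probe 1 was -0.71 with the deposited ratios (adjusted p = 0.0700), and it was called lower with median centring on tested probes (-0.89, adjusted p = 0.00366) and on all gene probes (-0.36, adjusted p = 0.0454). Centring on tested probes called 3935 of all 22613 tested probes lower, against 494 after loess. Centring on all gene probes called 518 lower, with the median tested probe at 0.54. Probes 2 and 3 gave -0.12 ± 0.13 and -0.060 ± 0.13, and probe 4 gave 0.18 ± 0.13. The probes of this gene therefore spanned 0.57 on the log2 scale, the widest range among the members, and differed in sign.

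Dntt encodes terminal deoxynucleotidyl transferase, which adds nucleotides to ends without a template and is characteristic of pro-B cells and early lymphoid progenitors. Its promoter window (GRCm38.p6, chr19:41029025-41029324, plus strand, with no GC box, CCAAT box or TATAAA) is shown because Dntt had the lowest ratios of the members and, of the 3 windows shown, the fewest CpG.
Dntt: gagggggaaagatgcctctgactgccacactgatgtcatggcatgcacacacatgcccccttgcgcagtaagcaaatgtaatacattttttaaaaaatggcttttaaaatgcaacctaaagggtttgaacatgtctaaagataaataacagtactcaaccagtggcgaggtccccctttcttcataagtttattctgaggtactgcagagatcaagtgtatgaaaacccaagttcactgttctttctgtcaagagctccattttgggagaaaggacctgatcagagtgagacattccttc
The window held 42.3% G and C and 2 CpG.

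All 3 Dntt probes were below 0 on both arrays, and none was called. Probe 1 (chr19:40953285-40953344) read 11.26 and 9.57 in autoreactive cells, against 11.58 and 11.21 in non-autoreactive cells. Its groups overlapped, because the array 1 autoreactive level lay above the array 2 non-autoreactive one. The log2 ratio was -0.98 ± 0.29, with -0.33 on array 1 and -1.64 on array 2 (limma adjusted p = 0.123). Probe 3 (chr19:40953110-40953169) read 10.41 and 8.32 in autoreactive cells, against 10.66 and 9.73 in non-autoreactive cells, and gave -0.83 ± 0.27 (adjusted p = 0.140). Probe 2 was well above background in the autoreactive channel on 1 of 2 arrays, so it was tested only because the non-autoreactive channel was bright enough on the other. Its ratio of -0.50 ± 0.20 (adjusted p = 0.200) moved to -1.14 with the deposited ratios, and it supports nothing here on its own.
The gap between the arrays for probes 1 and 3 was wider than for 99.5% and 99.2% of all tested probes. With median centring on tested probes, probes 1 and 3 were called lower, at -0.90 and -0.87 (adjusted p = 0.0437 and 0.0444), and the dim probe 2 stood at -0.87. That setting called 3935 of all 22613 tested probes lower, against 494 after loess. Array 1 alone gave -0.33 for probe 1 and -0.25 for probe 3.

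Several lists of markers of other cells also had medians below 0, some of them lower on array 2. Of 13 pro-B and lymphoid progenitor markers, a list that includes Dntt, 12 were tested, and their median ratio was -0.24 on array 1 and -0.84 on array 2. Their summed linear intensity was 105178 and 91856 in autoreactive cells, against 182188 and 162812 in non-autoreactive cells. Limma called 3 of them lower, among them Vpreb1 (-1.74), which encodes a surrogate light chain subunit, and 1 higher, the interleukin-7 receptor gene Il7r (0.68). Lin28b was not well above background. Of the 12 tested markers, 11 were well above background in the autoreactive channel on both arrays, and 12 in the non-autoreactive channel. Where a marker passed only through the non-autoreactive channel, the filter favoured a lower ratio.
Of 11 plasmacytoid dendritic cell markers, a cell type that also carries B220, 10 were tested and all 10 were below 0 on both arrays, with medians of -0.78 and -2.04. Their summed intensity was 70394 and 62331 in autoreactive cells, against 85871 and 112686 in non-autoreactive cells, and 2 were called lower. Siglech, which encodes a receptor of these cells, gave -0.87 on array 1 and -2.77 on array 2. The medians of 14 T and NK cell markers were -0.11 and -1.21, and those of 14 myeloid markers 0.066 and -0.76. The T cell markers Cd3g and Cd8a passed the filter only through the non-autoreactive channel. They were brighter there, so the filter favoured their direction. Medians were not lower on array 2 for the 10 erythroid markers, at -0.46 and -0.41, or the 12 B lineage markers, at -0.46 and -0.27. Of the 12 B lineage markers, limma called 5 lower, among them Ms4a1 (-3.61), and 2 higher. It called 2 T and NK, 2 erythroid and 1 myeloid marker lower, and 0 of these 3 lists higher. Among all genes tested, 3.52% were called higher and 2.62% lower. The sort was for B220 and against CD43, so it selected against cells that lack B220 or carry CD43. Which of these cell types remained in the pools was not tested. The part of these markers in the Dntt ratio was not tested, and in RNA of pooled cells fewer cells of a type and less RNA per cell cannot be told apart.

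**Figure D3:**
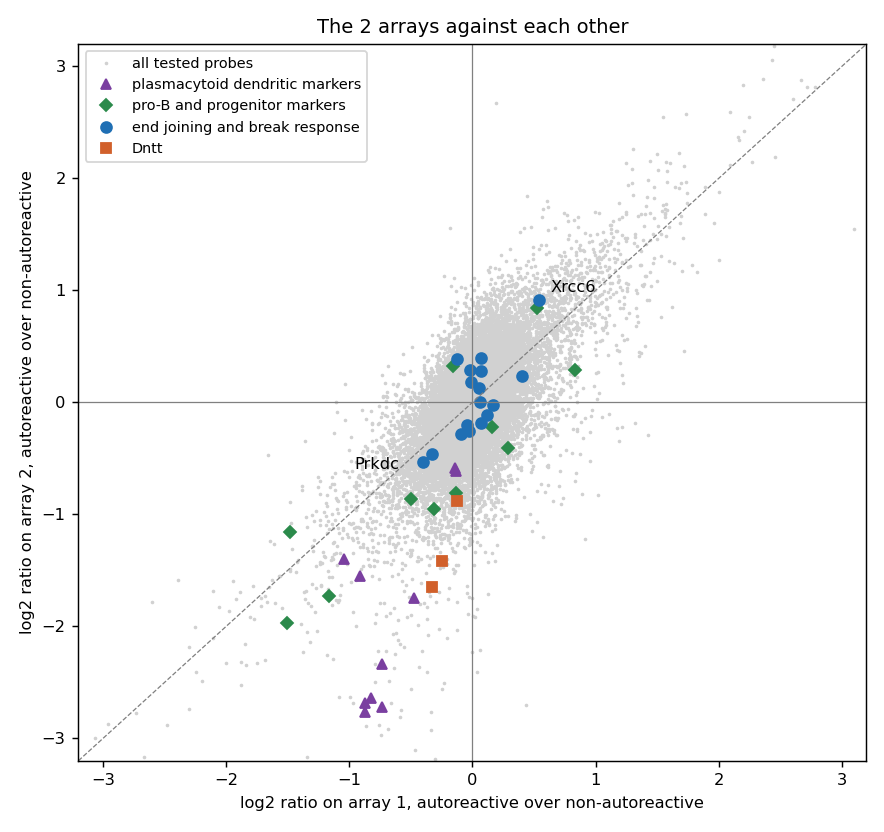
Log2 ratio of autoreactive over non-autoreactive cells on array 1 (x axis) against array 2 (y axis) for all tested probes (grey), member probes (blue circles), Dntt (orange squares) and the markers of 2 other cell types. Axes end at 3.2 in each direction, which leaves out 16 probes, and the dashed line marks equal ratios. The Dntt probes and the plasmacytoid dendritic cell markers lie below the dashed line, and Xrcc6 lies above it.

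Polymerases mu (Polm) and lambda (Poll) are relatives of terminal transferase that fill gaps during end joining. Their log2 ratios were 0.0039 ± 0.12 and 0.073 ± 0.14, and neither was called.

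The ligase complex consists of ligase IV (Lig4), its stabilising partner XRCC4 and the related scaffold XLF (Nhej1). Limma called 0 of its 6 tested probes, and 1 (Lig4 probe 2, higher) had an unadjusted p under 0.05. Lig4 probe 1 read 13.02 and 12.97 in autoreactive cells, against 12.96 and 12.97 in non-autoreactive cells, and gave 0.030 ± 0.12 (limma adjusted p = 0.905). Lig4 probe 2 read 13.39 and 13.57 in autoreactive cells, against 12.99 and 13.33 in non-autoreactive cells. These levels did not overlap, and the log2 ratio of 0.32 ± 0.13 was not called (adjusted p = 0.205), although it was called at 0.68 with median centring on tested probes (adjusted p = 0.00984). That setting called 3488 of all 22613 tested probes higher, against 718 after loess.
Xrcc4 probes 1 and 3 gave 0.13 ± 0.16 and 0.23 ± 0.14. The log2 ratio of Xrcc4 probe 1 was -0.12 on array 1 and 0.39 on array 2, so the arrays differed in sign. Xrcc4 probe 2 was not well above background in either channel and was not tested. Nhej1 probes 1 and 2 gave 0.086 ± 0.13 and 0.14 ± 0.14, each slightly below 0 on array 1 and above it on array 2.

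Atm encodes the kinase that signals double-strand breaks. Its probe 1, printed on 10 spots, read 8.30 and 8.15 in autoreactive cells, against 8.39 and 8.44 in non-autoreactive cells. The groups did not overlap, and the log2 ratio was -0.19 ± 0.13 (limma adjusted p = 0.410). The 9 spots kept on array 1 spanned -0.21 to -0.0029 and the 8 on array 2 spanned -0.35 to -0.21, so every kept spot was below 0. Atm probe 2, from a cDNA clone, gave 0.092 ± 0.12, on the other side of 0. Trp53bp1 encodes 53BP1, which shields ends from resection, and its probes gave 0.075 ± 0.13 and -0.00063 ± 0.13.

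The members lay on 8 chromosomes by the scanner files' positions, and 0 lay on chromosome 17, which carries the H-2 haplotype that differed between the groups. Dclre1c and Trp53bp1 share chromosome 2 with Rag1, the gene disrupted in the autoreactive animals, at 98.1 and 19.5 Mb from its probe.

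Other genes of break repair and damage response were described by lists of genes, each gene by its brightest probe. Of 119 listed genes, 115 were tested, and limma called 4 higher (3.48%) and 0 lower, where 3.52% of all 15104 genes were called higher and 2.62% lower. Rag2, among the 4, was tested through the autoreactive channel alone. At an unadjusted p under 0.05, 8 were higher (6.96%) and 16 lower (13.9%), where 12.0% and 12.3% of all genes were, shares against which the unadjusted counts of the single lists are also to be read. The median over the 115 genes was -0.020, against -0.0018 over all genes.

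End processing and accessory end joining genes, 21 of 21 tested, had 0 called in either direction (0 higher and 2 lower at an unadjusted p under 0.05) and a median of 0.058. The largest ratios by size were those of Cyren, which encodes a regulator of end joining, at -0.51 ± 0.12 (limma adjusted p = 0.0733), and Polq, the polymerase of theta-mediated end joining, at -0.47 ± 0.18 (adjusted p = 0.187). Among genes of break sensing, signalling and chromatin, 33 of 36 were tested and 0 were called (1 higher and 3 lower at an unadjusted p under 0.05). Their median was 6.4e-05, and no probe was matched to Atr, Mdc1 or Shld3, which are not analysed here. The histone methyltransferase gene Kmt5a gave -0.56 ± 0.19 and the shieldin gene Shld1 0.52 ± 0.16, neither called.

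Homologous recombination uses a sister chromatid to repair a break and competes with end joining. Its 25 genes had 0 called (1 higher and 5 lower at an unadjusted p under 0.05), and their median of -0.19 was the lowest of the 5 lists, with -0.14 on array 1 and -0.22 on array 2. Rad52, a strand annealing gene, gave 0.63 ± 0.14 (limma adjusted p = 0.0589) and Rad54l, a motor protein gene of strand exchange, -0.44 ± 0.16 (adjusted p = 0.178). The medians of 18 markers of dividing cells, in which this pathway is active, were -0.013 on array 1 and -0.31 on array 2, and limma called 0 of them (1 higher and 6 lower at an unadjusted p under 0.05). The part of these markers in the ratios was not tested.

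The called genes fell in the remaining lists. Among p53 and its damage-induced target genes, 28 of 29 were tested, 2 were higher and 0 lower (4 higher and 5 lower at an unadjusted p under 0.05), and the median was -0.023. Trp53inp1, a stress-induced p53 partner gene, read 15.97 and 16.20 in autoreactive cells, against 14.96 and 14.90 in non-autoreactive cells. It rose by a log2 ratio of 1.15 ± 0.13 (limma adjusted p = 0.00973), while its other probe gave 0.30 and was not called. Rrm2b, the p53-inducible ribonucleotide reductase subunit gene, read 11.45 and 12.04 in autoreactive cells, against 10.82 and 10.83 in non-autoreactive cells, and rose by 0.92 ± 0.17 (adjusted p = 0.0362). Both called genes, named here because of their calls, had groups that did not overlap, as did 24.4% of all tested probes in this direction. Neither Cdkn1a, the gene of the cell cycle inhibitor p21, at -0.28 nor Mdm2, the p53 ubiquitin ligase gene, at -0.15 was called. Cdkn1a and Mdm2 were picked after their values were seen and do not stand for the list. The call of Rrm2b was lost with the deposited ratios (adjusted p = 0.0640), without a filter on dim probes (0.0846) and with the channels fitted separately (0.159).

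The recombination partners, 8 of 8 tested, held the other 2 called genes. Rag1 stood at 4.14 on its brightest probe (limma adjusted p = 0.00046), and its 3 probes gave 1.04 to 4.14. Rag2 was 2.14-fold higher in the mean of both arrays (limma adjusted p = 0.0115). The Rag2 probe was too dim to rise above background in non-autoreactive cells and was tested through the autoreactive channel alone. The size of the Rag2 difference is therefore uncertain. Its log2 ratio was 0.65 with median centring on tested probes and 2.51 with the deposited ratios. The Rag2 call was lost with the channels fitted separately (adjusted p = 0.0684), and Rag2 was not tested when both channels had to be above background. Rag1 is disrupted in the autoreactive animals, and the sources used here do not state which part of the gene is missing. At an unadjusted p under 0.05, 1 of these partners was lower.

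**Figure D4:**
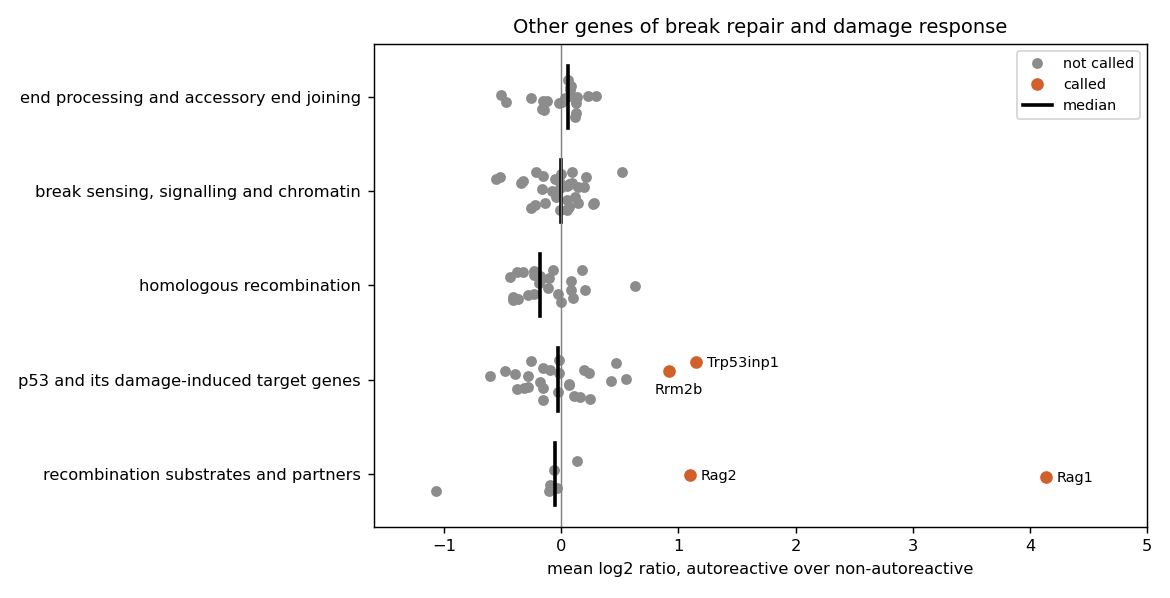
Mean log2 ratio of autoreactive over non-autoreactive cells (x axis) for each tested gene of 5 lists (y axis), with called genes in orange and the list median as a black bar. The medians lie between -0.19 and 0.058, and the 4 called genes lie right of the rest.

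**Figure D5:**
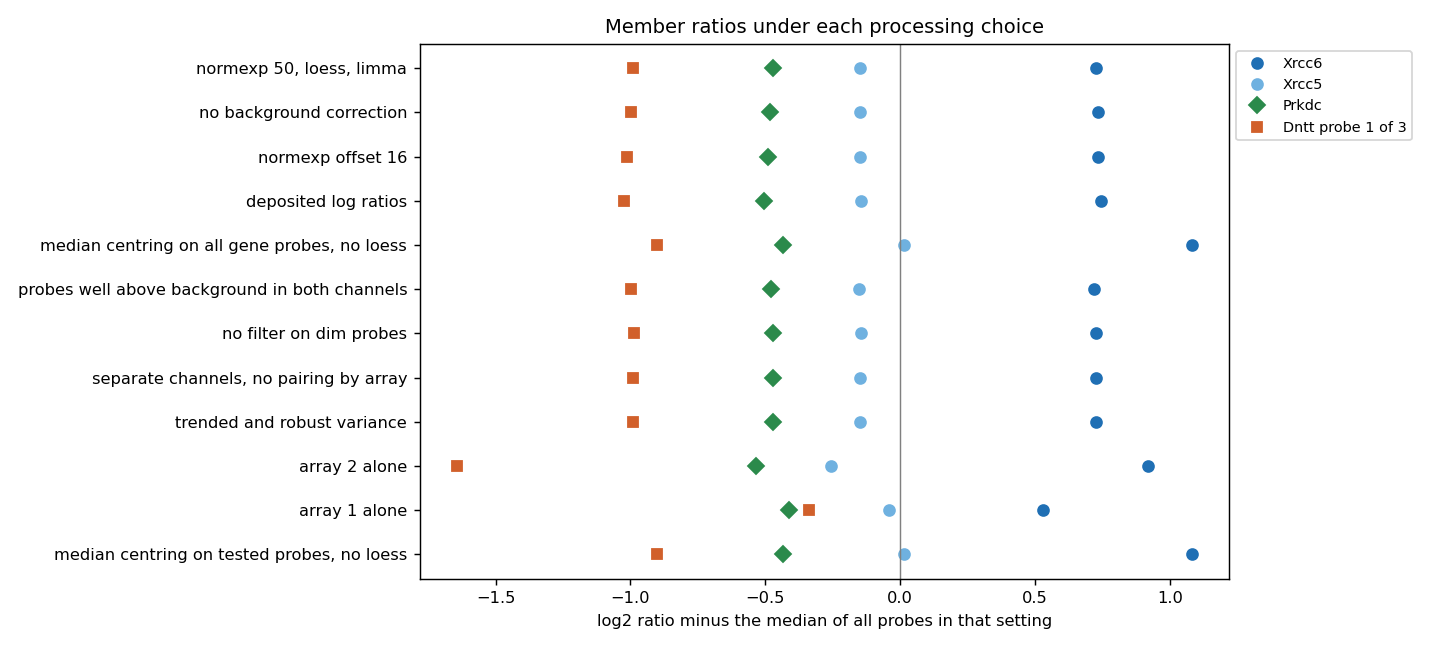
Log2 ratio of autoreactive over non-autoreactive cells for 4 member probes (x axis, after subtracting the median of all probes) under each processing choice (y axis). Xrcc6 was above the median and Prkdc and Dntt below it in each setting drawn, while Xrcc5 changed side with median centring, at 0.016.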

How the data were processed

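The deposited scanner files hold mean spot and median local background intensity for each dye, which the authors obtained from version 9.5.1.1 of Agilent Feature Extraction, per the file headers. That program also gave the log10 ratio (red dye over green) deposited beside them, and the values of the deposited series table equal it within 5e-10 with a median of 0 on each array. Per the labels, each labelling started from 0.5 ug of RNA and used a low-input linear amplification kit, and autoreactive cells carried Cy5 on both arrays, which lay on 1 slide. Slide and scan could therefore not be fitted as a batch.

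Intensities were corrected by normexp (offset 50) and normalized by loess within arrays in limma 3.58.1 (R 4.3.3), with control and outlier spots at no weight. Outlier spots (274 and 306) were removed, and spots of a probe were averaged. A probe had to be well above background on both arrays, in 1 channel or both, to be tested. Log2 ratios were tested against 0 with lmFit and eBayes, two-sided, with 1 residual and 5.1 prior degrees of freedom, and channel levels followed Aquantile scaling. Alternatives were no background correction, normexp offset 16, the deposited ratios, median centring, other filters on dim probes, separate channels, a trended and robust variance, the mean over a gene's probes and each array alone.

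Probes were named through a RefSeq table of GRCm38.p6 (22951 by main accession, 119 by another accession, 6585 by current symbol and 3077 by synonym, with 8442 keeping the file's name). It was used for names and for the gene starts set against the promoter windows. Promoter windows were found for 9 of the 10 members. All members are named, with every probe, and of each list the called genes up to 4, or the 2 with the largest ratios where none was called. Genes named beyond this rule (Polm, Poll, Cdkn1a, Mdm2 and the cell type markers) were chosen after their values were seen. Members and lists were chosen with earlier results of these data known. Figures were drawn with matplotlib 3.10.9.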

Additional observations from a re-analysis of the deposited data

How the results depend on the processing

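The count of member probes called higher, 1, fell to 0 with normexp offset 16, the deposited ratios, no filter on dim probes and separate channels. Median centring on all gene probes without loess moved the median tested probe to 0.54, and its counts are set against that shifted zero: 12 member probes higher and 1 lower, 14276 of all probes higher, and 90 listed genes called in place of 4. It turned the ratios of Xrcc5 to 0.55, Prkdc to 0.10, Dclre1c probes 2 and 3 to 0.46 and 0.46, Atm probe 1 to 0.12, Trp53bp1 probe 2 to 0.66, Kmt5a to 0.21, Cyren to 0.15, Polq to 0.044 and Rad54l to 0.21. Centring on tested probes, chosen after seeing the data, gave 2 member probes higher and 5 lower (Prkdc, Dclre1c probe 1 and Dntt, whose probe 2 was dim), 3488 and 3935 of all probes, and 34 listed genes. It turned Xrcc5 to 0.016, Dclre1c probe 4 to -0.23, and Trp53bp1 probes 1 and 2 to -0.33 and 0.13. Of all probes, 434 were higher with the deposited ratios, 301 lower without a filter, and 127 higher and 89 lower with separate channels, which left 2 listed genes called. The cause was not tested. Each array alone gave Xrcc6 0.54 and 0.92. The ratio pairs the channels of an array, so the results reported are paired by array, and separate channels drop that pairing (Xrcc6 adjusted p = 0.143).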
